A study of Mus musculus with 16 samples.

Results

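The 10 enzymes described here draw serine from glycolysis and carry its carbon into the folate pools. Their levels were compared between Adipo-Pgam1 KO mice and littermate controls in brown adipose tissue (BAT) and gonadal white adipose tissue (gWAT). The members were chosen by their place in the pathway, with earlier results of these data known, and each was read from the brightest of its probes. All 10 had at least 1 probe, among 22911 gene symbols on the array, of which 22894 had a value on every array. The 16 Agilent arrays were of the 1-colour kind, 4 for each tissue and genotype. Every mouse was a male on the C57BL/6NCrSlc background with floxed Pgam1 alleles, and the controls differed by lacking Adipoq-Cre. In the Adipo-Pgam1 KO mice, Cre was driven by the adiponectin promoter, which directs recombination to cells in which that promoter is active. The age was 16 weeks, but replicate 4 of the KO group was 14 weeks old in BAT and in gWAT. The labels do not say whether a BAT and a gWAT sample came from the same mouse.

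Serine synthesis branches from glycolysis at 3-phosphoglycerate, the substrate of phosphoglycerate mutase. Phgdh oxidizes 3-phosphoglycerate, Psat1 moves an amino group onto the product, and Psph removes the phosphate to release serine. Serine hydroxymethyltransferase then splits serine into glycine and a carbon unit bound to tetrahydrofolate, in the cytosol (Shmt1) or in mitochondria (Shmt2). In mitochondria Mthfd2 oxidizes that unit and Mthfd1l releases it as formate for export. Cytosolic Mthfd1 takes formate up again for purine and thymidylate synthesis. Aldh1l1 (cytosol) and Aldh1l2 (mitochondria) burn the unit to carbon dioxide. Several of these genes are known targets of the transcription factor Atf4, which is translated under amino acid shortage and mitochondrial stress.

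The windows upstream of the annotated start sites of the 4 members with an entry and a fitted log2 difference above 2 in BAT are shown because these genes moved together there. They are the 250 bases before the start in RefSeq's mouse assembly GRCm38.p6, 5′ to 3′ on the gene's strand, with CCAAT boxes on either strand in capitals. Psat1 has 2 annotated starts. The positions are chr3:98339970-98340219 (minus strand) for Phgdh, chr19:15925060-15925309 (minus strand) and chr19:15924623-15924872 (minus strand) for Psat1, chr6:83317605-83317854 (minus strand) for Mthfd2 and chr10:3972825-3973074 (plus strand) for Mthfd1l.
Phgdh: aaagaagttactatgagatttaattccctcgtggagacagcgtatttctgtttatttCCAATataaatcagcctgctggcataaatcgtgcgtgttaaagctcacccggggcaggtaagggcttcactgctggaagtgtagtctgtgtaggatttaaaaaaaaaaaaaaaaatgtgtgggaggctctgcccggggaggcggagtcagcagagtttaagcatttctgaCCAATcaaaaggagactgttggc
Psat1 first start: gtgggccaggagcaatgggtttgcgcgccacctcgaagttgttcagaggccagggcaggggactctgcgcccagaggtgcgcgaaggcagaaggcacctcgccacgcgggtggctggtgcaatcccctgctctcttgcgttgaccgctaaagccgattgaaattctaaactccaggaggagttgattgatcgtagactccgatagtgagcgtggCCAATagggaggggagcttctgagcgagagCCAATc
Psat1 second start: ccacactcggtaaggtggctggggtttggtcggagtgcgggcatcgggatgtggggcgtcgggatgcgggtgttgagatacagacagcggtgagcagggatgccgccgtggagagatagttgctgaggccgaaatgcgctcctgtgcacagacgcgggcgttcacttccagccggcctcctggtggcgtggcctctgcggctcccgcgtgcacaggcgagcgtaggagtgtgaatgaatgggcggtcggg
Mthfd2: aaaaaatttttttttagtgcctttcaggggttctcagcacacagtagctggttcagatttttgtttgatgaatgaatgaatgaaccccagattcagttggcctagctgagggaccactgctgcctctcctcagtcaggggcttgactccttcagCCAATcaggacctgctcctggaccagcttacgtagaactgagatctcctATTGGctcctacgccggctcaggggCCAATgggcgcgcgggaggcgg
Mthfd1l: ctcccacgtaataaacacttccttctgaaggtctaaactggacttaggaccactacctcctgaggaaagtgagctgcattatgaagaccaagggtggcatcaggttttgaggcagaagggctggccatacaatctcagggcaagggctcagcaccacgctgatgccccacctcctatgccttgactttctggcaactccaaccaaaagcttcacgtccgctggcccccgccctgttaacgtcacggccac
Aldh1l2 was not matched to an entry. The C/EBP-ATF response element, TGATGNAA on either strand, was in none of the windows of 250 bases before to 50 after the start of the 9 members with an entry. At least 1 window of 7 of the 14 genes of an Atf4 program list held it, and 3.97% of all 32851 windows did. The first counts are per gene and the last per window, and a gene can have several windows. The CCAAT box was upstream of 7 of the 9 members, of 8 of the 14 Atf4 program genes and in 33.8% of all upstream windows, and it was chosen after several short motifs had been counted in these windows. The Phgdh window holds 2 CCAAT boxes, the Mthfd2 window 3, the first Psat1 window 2, and the Mthfd1l window none.

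Pgam1, the targeted gene, checks the labels. Levels here and below are log2 of the background-subtracted signal relative to the 75th percentile of the array, so 0 is the 75th percentile and 1 unit is a doubling. In BAT, Pgam1 stood at 7.94, 7.93, 8.07 and 7.82 on the control arrays and at 6.20, 6.13, 6.03 and 6.43 on the Adipo-Pgam1 KO arrays. Every KO array was below every control, and the log2 difference was -1.74 (SE 0.11, adjusted p = 1.11e-05 by limma over all genes tested). In gWAT the order was the opposite, with 5.07, 5.15, 5.67 and 5.56 in controls and 6.50, 6.42, 6.38 and 5.95 on the arrays labelled Adipo-Pgam1 KO (log2 difference 0.95, SE 0.19, adjusted p = 0.014). A different Pgam1 probe gave -1.65 in BAT and 1.02 in gWAT. Where either probe lies relative to the floxed exons was not determined here. The gWAT groups are therefore called by their label, and each direction in gWAT rests on it.

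Facts of the whole series bear on these values. The share of probes well above background ran from 50% to 62.2%, no spot was saturated, and arrays of 1 group correlated at 0.971 to 0.994 over the genes well above background on all 16. In BAT of Adipo-Pgam1 KO mice the summed level of 8 adipocyte markers was 910 to 1250 against 2610 to 2890 in controls (sums of linear levels, 1 being the 75th percentile). That of 7 brown adipocyte markers was 1410 to 2330 against 4280 to 4610, and 6 of the 7 fell. That of 8 macrophage markers was 89.4 to 131 against 27.6 to 38.1, that of 5 proliferation markers 4.67 to 7.84 against 0.335 to 1.6, and that of 5 fibroblast markers 149 to 206 against 101 to 113. That of 6 skeletal muscle markers was 0.848 to 78.9 against 0.387 to 1.07, and 1 of the 3 tested was called higher by limma. Ckm, Myh1 and Myh4 were well above background on no BAT control array. In gWAT the summed level of 7 brown adipocyte markers was 127 to 329 on the arrays labelled KO against 26.5 to 62.1, and 4 of the 5 tested passed. The sum of 6 skeletal muscle markers there was 29.7 to 57.8 against 2.78 to 24.2, with none of the 3 tested called by limma (1, Acta1, had an unadjusted p under 0.05, at 0.00903) and Ckm, Myh1 and Myh4 well above background on no array labelled KO. Cdk1 and Bub1 were well above background on no BAT control array, and Ucp1 on no gWAT control array. In bulk tissue, fewer cells of a type and less RNA per cell cannot be told apart, and the part of these markers in the results below was not tested. The arrays lay on 3 slides, and in each tissue 1 control array shared a slide with the 4 KO arrays while the other 3 controls lay on another slide. The slide with gWAT control 4 and the 4 gWAT arrays labelled KO was scanned on a different day from all other arrays. In gWAT the slide and the scan day therefore cannot be told apart.

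In BAT of Adipo-Pgam1 KO mice, 6 of the 10 members were higher than in controls, 2 were lower, and Psph and Mthfd1 did not pass the test. The rises were in Phgdh, Psat1, Shmt2, Mthfd2, Mthfd1l and Aldh1l2, and the falls were in Aldh1l1 and Shmt1. These counts are limma's adjusted p under 0.05 over 14267 genes tested, of which 61.4% were called, 27.5% higher and 33.9% lower, so a call by itself sets a member little apart from the rest. Mthfd1l and Aldh1l2 passed the filter on dim probes through their high group alone and had to differ. Of the 8 members well above background on every BAT array, 4 rose and 2 fell, and their median log2 difference was 0.34, beside -0.13 for all genes well above background on every BAT array.

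**Figure D1:**
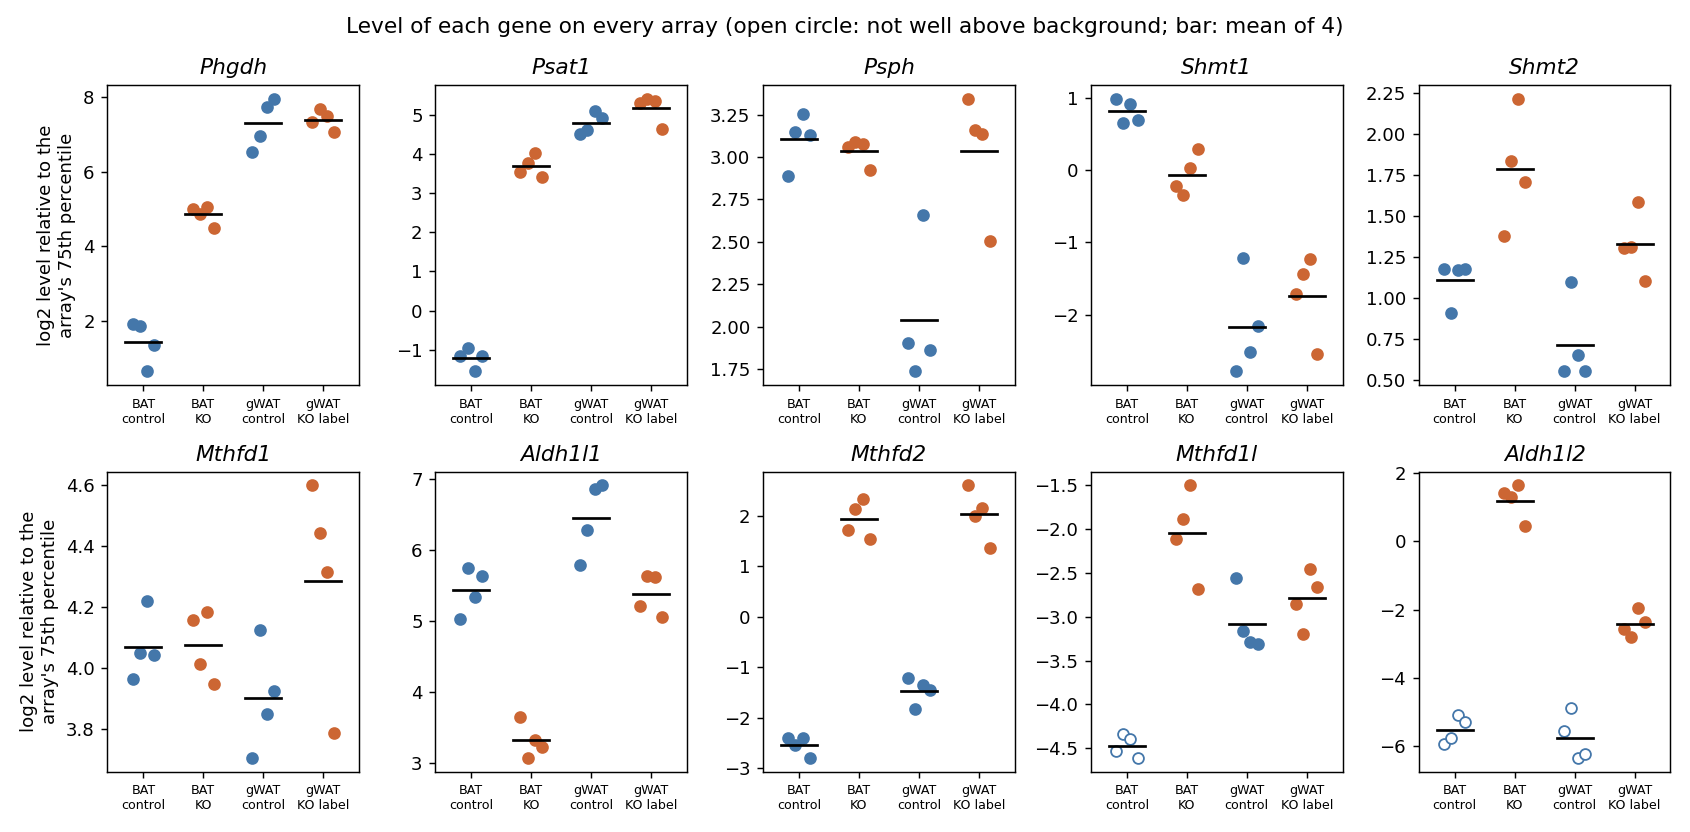
Log2 level of each enzyme relative to the array's 75th percentile (y axis, a separate scale in each panel), with 1 point per array and a bar at the mean of 4 for each tissue and genotype (x axis). Open circles are not well above background. Aldh1l2, Mthfd2, Shmt2 and Aldh1l1 separate the genotypes in both tissues. Phgdh and Psat1 do so in BAT only and sit high in gWAT of either group.

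The first 2 enzymes of serine synthesis rose in BAT. Phgdh, which commits 3-phosphoglycerate to serine, stood at 1.90, 1.86, 0.63 and 1.33 in controls and at 5.003, 4.87, 5.05 and 4.49 in Adipo-Pgam1 KO mice. No control came within 2 units of a KO array, and the log2 difference was 3.42 (SE 0.28, 95% confidence interval 2.78 to 4.06, adjusted p = 2.46e-05). Psat1, the aminotransferase, stood at -1.15, -0.97, -1.55 and -1.15 in controls and at 3.53, 3.78, 4.01 and 3.42 in KO mice. This is a 29.6-fold rise (log2 difference 4.89, SE 0.17, adjusted p = 8.94e-07), the 34th largest of the 14267 genes. A dimmer Psat1 probe, well above background on no control BAT array, rose by 4.29. Psph, the phosphatase that ends the route, behaved differently. It stood at 2.89, 3.15, 3.25 and 3.13 in controls and at 3.06, 3.09, 3.08 and 2.93 in KO mice, with overlapping groups. Its log2 difference was -0.07, with a 95% confidence interval of -0.31 to 0.17 (adjusted p = 0.591). It had no settled direction, at 0.47 with spike-in scaling (adjusted p = 0.0219) and -0.66 with scaling on Actb and Rplp0 (adjusted p = 0.00193).

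The mitochondrial folate enzymes among the members, Mthfd2, Mthfd1l and Aldh1l2, all rose in BAT. Mthfd1l and Aldh1l2 passed the filter through the KO group alone, as given above. Mthfd2, the mitochondrial dehydrogenase and cyclohydrolase, stood at -2.41, -2.54, -2.41 and -2.80 in controls and at 1.72, 2.14, 2.33 and 1.53 in KO mice. The groups were far apart, and the 22.2-fold rise (log2 difference 4.47, SE 0.19, adjusted p = 1.92e-06) was 5.02 by a different probe. Aldh1l2, the mitochondrial enzyme that releases the carbon unit as carbon dioxide, was well above background on none of the 4 control arrays, with values of -5.93, -5.76, -5.08 and -5.30. In KO mice it stood at 1.41, 1.29, 1.64 and 0.45 and was well above background on every array. In this background-subtracted signal it was at least 35.9-fold higher. This bound sets the mean of the KO arrays against, on each control array, the lowest signal among probes well above background or the probe's own signal, whichever was higher. The fitted log2 difference was 6.72 (SE 0.28, adjusted p = 1.92e-06), a value that rests on the signal near background in the controls and is no bound. Mthfd1l, the mitochondrial formyltetrahydrofolate synthetase, was likewise not well above background on any control array (-4.54, -4.34, -4.39 and -4.61). It stood at -2.11, -1.88, -1.51 and -2.69 in KO mice, at least 3.77-fold higher, with a fitted log2 difference of 2.42 (SE 0.23, adjusted p = 4.40e-05). A different Mthfd1l probe gave -0.44 but was well above background on only 1 of the 16 arrays, so Mthfd1l rests on a single probe. With normexp background correction the log2 differences of these dim genes shrank, to 3.70 or 4.16 for Aldh1l2 and to 0.76 or 1.20 for Mthfd1l depending on the scaling. Those values lie below the bounds. Every such bound, here and below, holds only for the background-subtracted signal defined above and is no minimum across background methods.

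The serine hydroxymethyltransferases moved apart in BAT. Shmt2, the mitochondrial form, stood at 1.18, 0.91, 1.17 and 1.18 in controls and at 1.38, 1.84, 2.22 and 1.71 in KO mice (log2 difference 0.68, SE 0.17, adjusted p = 0.00846). Shmt1, the cytosolic form, stood at 0.99, 0.64, 0.91 and 0.69 in controls and at -0.22, -0.34, 0.03 and 0.28 in KO mice (log2 difference -0.87, SE 0.16, adjusted p = 0.00127). Neither pair of groups overlapped, which was so for 57.1% of genes tested in BAT (25.2% with KO higher and 31.9% with KO lower). These smaller changes depended on the scaling and the slide. Shmt2 was 0.09 (adjusted p = 0.621) when arrays were scaled on Actb and Rplp0, and 0.61 (adjusted p = 0.117) with the slide as a fixed block, and Shmt1 was -0.33 (adjusted p = 0.0577) when arrays were scaled on spike-ins.

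Of the cytosolic folate enzymes, Aldh1l1, which burns formyltetrahydrofolate in the cytosol, fell in BAT. It stood at 5.03, 5.75, 5.34 and 5.64 in controls and at 3.65, 3.07, 3.32 and 3.23 in KO mice, with no overlap. The log2 difference was -2.12 (SE 0.19, 95% confidence interval -2.55 to -1.69, adjusted p = 3.28e-05), or 4.35-fold lower, while Aldh1l2, its mitochondrial counterpart, rose in the same tissue. Mthfd1, the cytosolic enzyme with all 3 folate activities, stood at 3.96, 4.05, 4.22 and 4.04 in controls and at 4.16, 4.01, 4.18 and 3.95 in KO mice. Its groups overlapped, and its log2 difference was 0.01 (95% confidence interval -0.22 to 0.24, adjusted p = 0.959). On the 5 arrays that shared a slide, 1 control and 4 KO, the log2 differences were 3.52 for Phgdh, 4.83 for Psat1, 4.73 for Mthfd2, 2.56 for Mthfd1l, 6.50 for Aldh1l2 and -2.32 for Aldh1l1. These within-slide values are also the estimates with the slide as a fixed block. They rest on a single control array, and any p from that fit takes its spread from the KO arrays and from the 3 controls of the other slide.

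**Figure D2:**
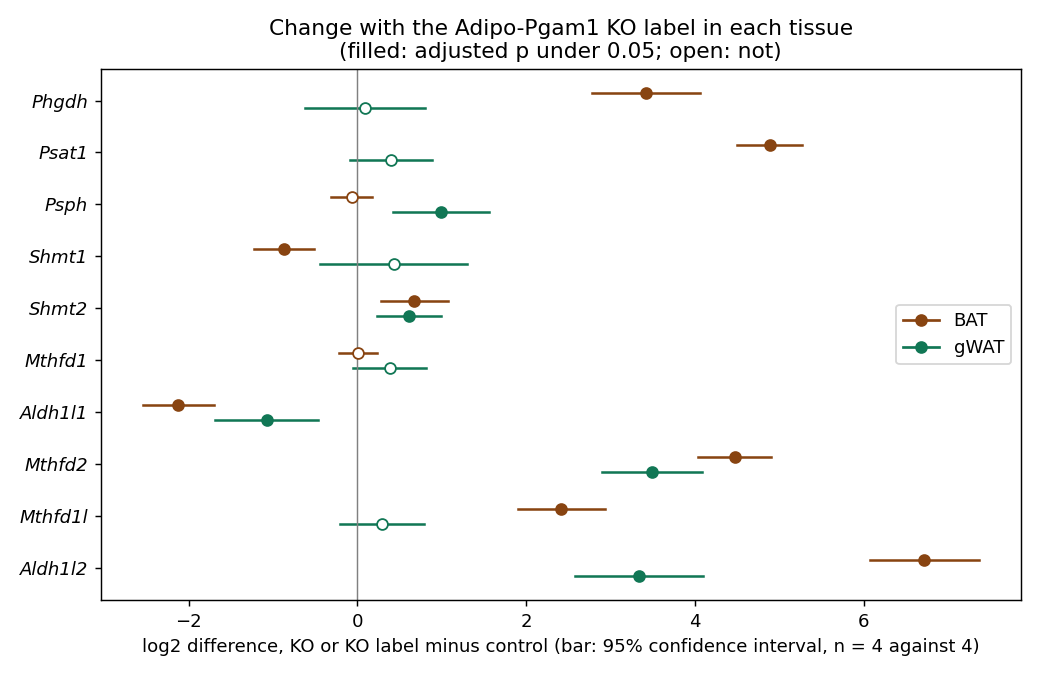
Log2 difference between arrays labelled Adipo-Pgam1 KO and control arrays for each enzyme (x axis), in BAT (brown) and gWAT (green). Bars are 95% confidence intervals from 4 against 4 arrays, and filled points have an adjusted p under 0.05. Mthfd2 lies above 3 in both tissues, and Phgdh and Psat1 above 3 in BAT and near 0 in gWAT. The points of Aldh1l2 and of Mthfd1l in BAT are fitted against controls not well above background.

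In gWAT, Mthfd2 and Aldh1l2 were again higher on the arrays labelled Adipo-Pgam1 KO. Psph and Shmt2 were higher and Aldh1l1 was lower by about 1 log2 unit or less, and Phgdh, Psat1, Shmt1, Mthfd1 and Mthfd1l did not pass the test. In all 5 of the 10 members were called, beside 17.9% of the 14137 genes tested (10% higher and 7.86% lower). Aldh1l2 passed the filter through its high group alone and had to differ. The median log2 difference of the other 9, all well above background on every gWAT array, was 0.40, beside 0.06 for all genes with that property.

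Mthfd2 stood at -1.21, -1.84, -1.35 and -1.46 in gWAT controls and at 2.60, 1.99, 2.15 and 1.35 on the arrays labelled KO. The log2 difference was 3.49 (SE 0.26, 95% confidence interval 2.90 to 4.08, adjusted p = 0.000546), the 18th largest rise of the 14137 genes, and 3.58 by a different probe. Aldh1l2 was well above background on no gWAT control array (-5.55, -4.88, -6.35 and -6.24) and on every array labelled KO (-2.58, -2.79, -1.95 and -2.35), at least 4.11-fold higher. Its fitted log2 difference of 3.34 (SE 0.33, adjusted p = 0.00135) fell to 1.20 or 1.24 with normexp background correction, which is below that bound. On the 5 gWAT arrays that shared a slide, the log2 differences were 3.49 for Mthfd2 (adjusted p = 0.0196) and 3.82 for Aldh1l2 (adjusted p = 0.0223). No other member was called in gWAT in that fit, which again has 1 control beside the KO arrays.

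The other calls in gWAT were close to the threshold. Psph stood at 1.91, 1.74, 2.66 and 1.86 in controls and at 3.34, 3.16, 3.14 and 2.51 on the arrays labelled KO, and control 3 lay above KO array 4 (log2 difference 0.99, SE 0.25, adjusted p = 0.0295). Shmt2 stood at 0.55, 1.1, 0.65 and 0.56 in controls and at 1.30, 1.31, 1.59 and 1.11 on the arrays labelled KO (log2 difference 0.61, SE 0.17, adjusted p = 0.0385). Aldh1l1 stood at 5.78, 6.28, 6.85 and 6.91 in controls and at 5.21, 5.63, 5.63 and 5.06 on the arrays labelled KO (log2 difference -1.08, SE 0.27, adjusted p = 0.0292). The Shmt2 and Aldh1l1 groups did not overlap, which was so for 24.2% of genes tested in gWAT (13.3% with the KO label higher and 10.8% lower). On the 5 arrays of the shared slide these differences were 1.17 for Psph (adjusted p = 0.199), 0.77 for Shmt2 (adjusted p = 0.199) and -1.53 for Aldh1l1 (adjusted p = 0.119). Each of the 3 calls was also lost in at least 6 of the 8 fits that left out 1 array, where the adjusted p rose to at most 0.084 for Psph, 0.105 for Shmt2 and 0.0822 for Aldh1l1.

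Phgdh and Psat1 were already high in gWAT controls. Phgdh stood at 6.52, 6.96, 7.75 and 7.97 in controls and at 7.34, 7.67, 7.49 and 7.06 on the arrays labelled KO (log2 difference 0.09, 95% confidence interval -0.62 to 0.81, adjusted p = 0.868). Psat1 stood at 4.50, 4.60, 5.09 and 4.92 in controls and at 5.30, 5.41, 5.36 and 4.63 on the arrays labelled KO (log2 difference 0.40, 95% confidence interval -0.08 to 0.88, adjusted p = 0.219). Replicate 4, the array of the younger mouse, was the low one of that group, and without it Psat1 differed by 0.58 (adjusted p = 0.0454). With spike-in scaling, which shifted the median of all genes in gWAT by 0.44, Psat1 differed by 0.84 (adjusted p = 0.00322). Its result was unchanged in 21 of 24 other settings. The dimmer Psat1 probe, well above background on every gWAT array, gave 0.60 in gWAT. Mthfd1l stood at -2.57, -3.17, -3.29 and -3.31 in controls and at -2.86, -3.20, -2.46 and -2.66 on the arrays labelled KO (log2 difference 0.29, 95% confidence interval -0.21 to 0.79, adjusted p = 0.379). All 3 pairs of groups overlapped.

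Shmt1 and Mthfd1 also overlapped between the gWAT groups. Shmt1 stood at -2.78, -1.21, -2.51 and -2.15 in controls and at -1.71, -1.44, -1.23 and -2.54 on the arrays labelled KO (log2 difference 0.43, 95% confidence interval -0.44 to 1.30, adjusted p = 0.461). Mthfd1 stood at 3.70, 4.13, 3.85 and 3.92 in controls and at 4.60, 4.44, 4.31 and 3.78 on the arrays labelled KO (log2 difference 0.39, adjusted p = 0.187). The 2 Mthfd1 probes, both well above background on all 16 arrays, disagreed in gWAT, with 0.39 by the brighter and -0.67 by the dimmer one. Without replicate 4 of the arrays labelled KO, the brighter probe gave 0.55 (adjusted p = 0.0325). No direction is given for Mthfd1.

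The difference between the tissues was tested as the change in gWAT minus the change in BAT over all 16 arrays. It passed for 8 of the 10 members, beside 48.3% of the 14807 genes tested (27.4% more positive in gWAT and 21.0% in BAT). Aldh1l2 and Mthfd1l were well above background on no BAT control array, and Aldh1l2 on no gWAT control array. Their values are fitted ones, and were -2.49 and -0.65 with normexp background correction. Of the 8 members well above background on all 16 arrays, 6 passed, beside 6294 of 12372 such genes. The change was more positive in BAT for Psat1 (log2 difference of changes -4.49, SE 0.28, adjusted p = 9.84e-07), Aldh1l2 (-3.38, SE 0.47, adjusted p = 7.34e-05), Phgdh (-3.33, SE 0.45, adjusted p = 6.18e-05), Mthfd1l (-2.13, SE 0.33, adjusted p = 0.000164) and Mthfd2 (-0.98, SE 0.34, adjusted p = 0.0269). It was more positive in gWAT for Shmt1 (1.30, SE 0.44, adjusted p = 0.0251), Psph (1.06, SE 0.28, adjusted p = 0.00642) and Aldh1l1 (1.04, SE 0.35, adjusted p = 0.0219). Psat1 and Phgdh kept an adjusted p under 0.05 in all 30 other settings. With the slide as a fixed block 4 calls were lost, at -1.25 for Mthfd2, 1.17 for Shmt1, 1.27 for Psph and 0.79 for Aldh1l1, with adjusted p between 0.0705 and 0.297. For Shmt2 the difference of changes was -0.06 (95% confidence interval -0.59 to 0.46) and for Mthfd1 0.38 (-0.08 to 0.84).

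**Figure D3:**
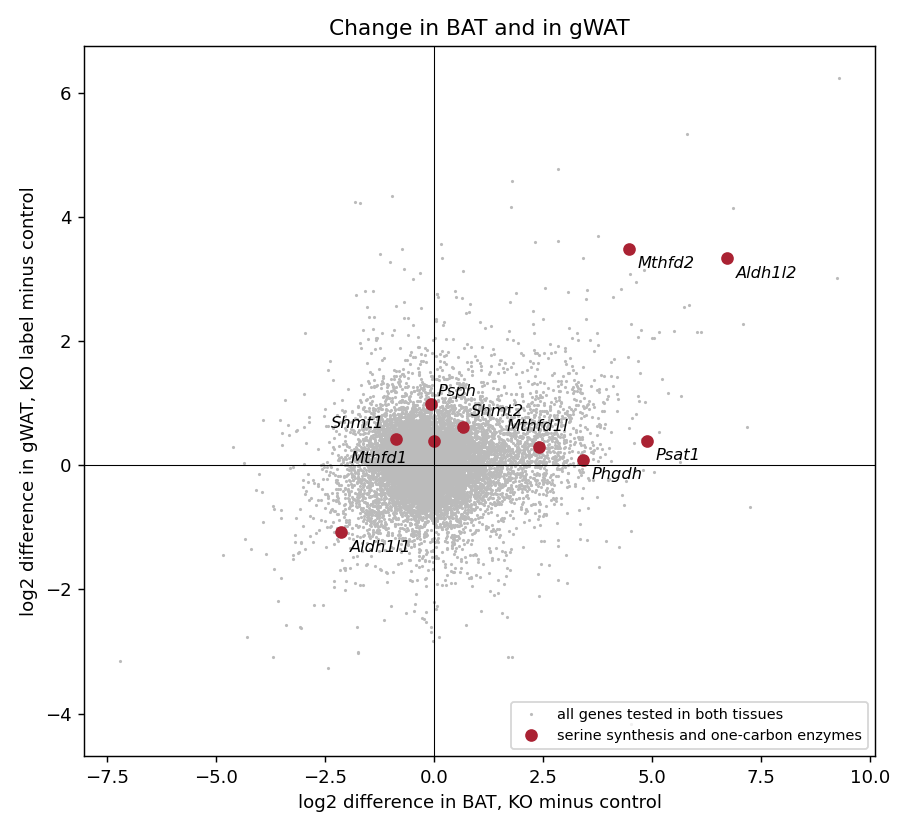
Log2 difference in BAT (x axis) against log2 difference in gWAT (y axis), KO or KO label minus control, for the 13597 genes tested in both tissues (grey) and the 10 enzymes (red). Mthfd2 is among the 10 genes above 3 on both axes, and Phgdh and Psat1 lie far right near the horizontal line at 0. Aldh1l2 and, in BAT, Mthfd1l are placed by fitted values against controls not well above background.

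Of 13597 genes tested in both tissues, 10 had a fitted log2 difference above 3 in each, a cutoff chosen after the values were seen. Mthfd2 was among them, as was Aldh1l2 by its fitted values, though its bound in gWAT is the 4.11-fold given above. The others were the hormones Fgf21 and Gdf15, the cytochrome c oxidase subunit Cox6a2, and Gpnmb, Lsmem1, Mlana, Tchh and Vsig8. These are fitted values too, and Gdf15 was well above background on 2 of the 4 BAT control arrays. A rise past the test in both tissues was seen for 473 genes, or 3.48%, and for the members Mthfd2 and Shmt2. Aldh1l2 passed in both too, but it entered each test through its high group alone and had to differ.

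The tissues differed in these enzymes without the deletion. Of the 9 members tested between BAT and gWAT controls, 5 were higher in gWAT, 3 were higher in BAT, and Mthfd1 did not pass (log2 difference, BAT minus gWAT, 0.17, adjusted p = 0.257). Among all 14291 genes tested, 64.7% were called, 35.4% higher in BAT and 29.3% higher in gWAT. The groups of 7 members did not overlap, 2 higher in BAT and 5 higher in gWAT, beside 60.8% of all genes tested (33.6% and 27.2%). Psat1 was 63.2-fold higher in gWAT controls (log2 difference -5.98, SE 0.18, adjusted p = 1.87e-07) and Phgdh 58.4-fold higher (-5.87, SE 0.39, adjusted p = 5.04e-06). Mthfd2 (-1.07, SE 0.16, adjusted p = 0.000463) and Aldh1l1 (-1.02, SE 0.28, adjusted p = 0.0107) were also higher in gWAT. Mthfd1l was at least 1.84-fold higher, having passed the filter through gWAT alone, and with normexp background correction it missed the threshold (-0.17, adjusted p = 0.171). Shmt1 was 7.84-fold higher in BAT (2.97, SE 0.31, adjusted p = 5.50e-05) and Psph 2.09-fold higher (1.06, SE 0.21, adjusted p = 0.00193). Shmt2 was 0.39 higher in BAT with overlapping groups (adjusted p = 0.0459), a call lost in 17 of 23 other settings. Aldh1l2 was below the limit of detection in both and was not tested. The single BAT control that shared a slide with 3 gWAT controls gave -5.88 for Psat1, -5.75 for Phgdh, -1.34 for Mthfd2, -0.67 for Aldh1l1, 2.86 for Shmt1 and 1.03 for Psph, and Psph and Aldh1l1 then missed the threshold (adjusted p = 0.0607 and 0.255). Macrophage and fibroblast markers were also lower in BAT controls than in gWAT controls (summed levels 27.6 to 38.1 against 65.2 to 88.6, and 101 to 113 against 295 to 336), and their part in these differences was not tested.

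The order of the 4 groups therefore differed among members. For Phgdh and Psat1, BAT controls were lowest and BAT of KO mice came next, still below every gWAT array. The gWAT groups at the top overlapped for both genes, and neither gene passed the test in the main setting. For Psat1 this depended on the setting, as given above. For Mthfd2, BAT controls and then gWAT controls were lowest, and the KO groups of the tissues overlapped at the top, with means of 1.93 ± 0.37 in BAT and 2.02 ± 0.52 in gWAT (SD, n = 4). For Aldh1l2 both control groups were below the limit of detection, the gWAT arrays labelled KO were intermediate at -2.42 ± 0.36, and BAT of KO mice was highest at 1.20 ± 0.52. For Aldh1l1 the gWAT controls were highest (6.46 ± 0.53), the BAT controls (5.44 ± 0.32) and the gWAT arrays labelled KO (5.38 ± 0.29) overlapped, and BAT of KO mice was lowest (3.32 ± 0.25).

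Likeness of pattern was measured as the root mean square difference over the 16 arrays after each gene was centred on its own mean, among the 12372 genes well above background on all of them. The genes nearest to Phgdh were Gm6756 (0.070), Gm8096 (0.10) and Atp6v0e2 (0.55). RefSeq lists the first 2 as transcribed pseudogenes, and whether their probes and the Phgdh probe read the same RNA was not tested. Of the members, Psat1 was nearest to Phgdh (0.64), and ranked 6th of 12371 other genes. Mthfd2 was nearest to Dnmt3l (0.72), Aldh18a1 (0.78) and Plekhg6 (0.78), and its nearest member was Shmt2 at 1.79. The nearest member to Psph was Mthfd1 (0.42), to Shmt1 Psph (1.07), to Shmt2 Mthfd1 (0.40), to Mthfd1 Shmt2 (0.40) and to Aldh1l1 Mthfd1 (1.23), at ranks between 1268 and 5169. Mthfd1l and Aldh1l2 were not well above background on every array and were left out.

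The other genes of the pathway moved unevenly. Of 58 further genes of folate, purine, methionine, serine and glycine metabolism, 49 were tested in BAT, of which 12 rose and 23 fell. That is 71.4% called, beside 61.4% of all genes. In gWAT 51 were tested, 7 were higher and 6 lower on the arrays labelled KO, and 25.5% were called beside 17.9% of all genes. The median log2 differences of these genes were -0.26 in BAT and 0.02 in gWAT, beside -0.08 and 0.05 for all genes tested. For each list below, the shares over all genes were 27.5% higher and 33.9% lower in BAT, and 10% and 7.86% in gWAT.

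Genes that use serine and glycine were mostly lower in BAT. All 11 tested were called, 9 lower and 2 higher, beside 33.9% and 27.5% of all genes, with a median log2 difference of -1.002. Among the lower ones were Srr, serine racemase (-1.42, SE 0.13, adjusted p = 4.41e-05), Ptdss2, which makes phosphatidylserine (-1.37, SE 0.20, adjusted p = 0.000439), and Gcsh, a subunit of the glycine cleavage system (-1.26, SE 0.15, adjusted p = 0.000155). In gWAT 2 of the 11 were higher and none lower, with Sdsl, a serine dehydratase-like enzyme, at 1.13 (SE 0.24, adjusted p = 0.0169). That share is near the 17.9% of all genes called there.

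Carriers of serine and glycine moved both ways. In BAT 3 of 10 rose and 3 fell, near the 61.4% of all genes called there. The rises were in Slc6a9, the glycine transporter GlyT1 (3.62, SE 0.28, adjusted p = 2.11e-05), Slc38a1, a neutral amino acid transporter (2.84, SE 0.20, adjusted p = 1.37e-05), and Sfxn3, a mitochondrial sideroflexin (1.15, SE 0.17, adjusted p = 0.000449). Slc6a9 stood between -0.85 and -0.29 in BAT controls and between 2.34 and 3.78 in KO mice. In gWAT none of 11 rose and 4 fell, among them Slc7a10, the alanine-serine-cysteine transporter Asc-1 (-1.50, SE 0.20, adjusted p = 0.0034), Slc1a4 (-1.12, SE 0.27, adjusted p = 0.0254) and Slc1a5 (-0.85, SE 0.17, adjusted p = 0.0143). Slc7a10 stood between 5.11 and 5.92 in gWAT controls and between 3.79 and 4.14 on the arrays labelled KO, and it was the one further pathway gene named here for gWAT that kept its call with the slide as a fixed block.

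Among 13 other folate genes tested in BAT, 4 rose and 4 fell, near the 61.4% of all genes called there. Folr2, the folate receptor of macrophages, rose by 3.07 (SE 0.29, adjusted p = 4.76e-05), beside the macrophage markers given above, and Tyms, thymidylate synthase, rose by 1.01 (SE 0.16, adjusted p = 0.000614), beside the proliferation markers. Slc46a1, the proton-coupled folate transporter, fell by 1.45 (SE 0.16, adjusted p = 0.000109). In gWAT 3 of 13 rose and 1 fell, with Slc19a1, the reduced folate carrier, at 1.53 (SE 0.21, adjusted p = 0.00455), Slc25a32, the mitochondrial folate carrier, at 0.95 (SE 0.28, adjusted p = 0.0458), and Mthfd2l, a paralog of Mthfd2, at -0.51 (SE 0.11, adjusted p = 0.02). In BAT, Mthfd2l stood between 0.67 and 1.15 in controls and lower, between 0.02 and 0.27, in KO mice.

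In the methionine cycle, Mtr, methionine synthase, rose in BAT (1.53, SE 0.10, adjusted p = 1.16e-05), while 4 of the 9 genes tested fell, among them Gnmt, glycine N-methyltransferase (-1.52, SE 0.20, adjusted p = 0.000226), and Chdh, choline dehydrogenase (-1.34, SE 0.13, adjusted p = 6.00e-05). In gWAT 2 of 10 rose and 1 fell, with Chdh again lower (-1.62, SE 0.30, adjusted p = 0.0113) and Ahcyl1 at 0.59 (SE 0.16, adjusted p = 0.0392). Of 6 purine synthesis genes, 2 rose and 3 fell in BAT, with Gart at -0.51, Pfas at -0.48 and Paics at -0.44 (adjusted p = 0.00355 to 0.00403). These 3 turned to 0.03, 0.07 and 0.11 with spike-in scaling. None of the 6 was called in gWAT by limma, and 1, Paics, had an unadjusted p under 0.05 (0.0209).

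**Figure D4:**
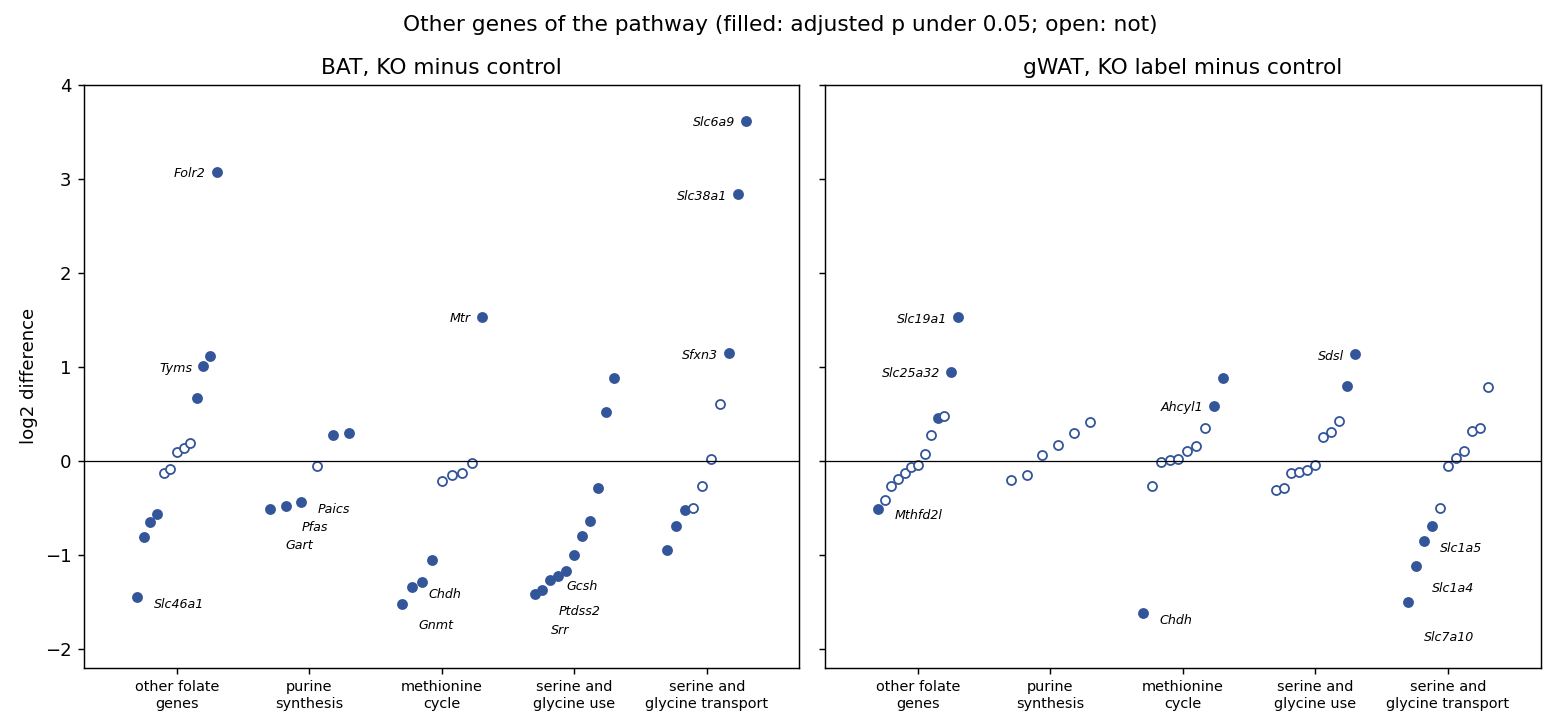
Log2 difference (y axis), KO or KO label minus control, of the other tested genes of the pathway by list (x axis), in BAT (left) and gWAT (right). Filled points have an adjusted p under 0.05, and the named genes are the up to 3 largest changes of each list that met the naming rule. In BAT all 11 genes of serine and glycine use are filled and 9 lie below 0.

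Genes of the Atf4 program moved beside the members. Of 14 such genes, none of them a member, 9 were higher and 2 lower in BAT, beside 61.4% of all genes called there (27.5% higher and 33.9% lower). Of the 12 well above background on every BAT array, 7 were higher and 2 lower, beside 3157 and 4717 of 12879 such genes. In gWAT 5 were higher and none lower, beside 17.9% of all genes, and 1 of the 14 was called with the slide as a fixed block. Of the 13 well above background on every gWAT array, 4 were higher and none lower, beside 1449 and 1029 of 13278 such genes. The median log2 differences over all 14 were 1.52 in BAT and 0.59 in gWAT, beside -0.08 and 0.05 for all genes tested. Trib3, a pseudokinase induced under stress, rose by 4.30 in BAT (SE 0.23, adjusted p = 5.68e-06) and was 2.85 higher in gWAT (SE 0.41, adjusted p = 0.00479). In BAT, Chac1, which degrades glutathione, rose by 3.85 (SE 0.40, adjusted p = 7.01e-05) and the transcription factor Atf3 by 3.67 (SE 0.61, adjusted p = 0.000894). In gWAT, the secreted factor Gdf15 was 3.01 higher (SE 0.57, adjusted p = 0.0122) and the transcription factor Atf5 1.79 higher (SE 0.22, adjusted p = 0.00298). Asns, asparagine synthetase, was at 0.15 in BAT (adjusted p = 0.329) and 0.30 in gWAT (adjusted p = 0.403), and was named after its values were seen. Atf4 transcript itself was 1.64 higher in BAT (adjusted p = 8.22e-05) and at 0.03 in gWAT (adjusted p = 0.952), and was likewise named afterwards. With the slide as a fixed block, the gWAT calls of Trib3, Gdf15 and Atf5 were lost (adjusted p = 0.125, 0.241 and 0.0916).

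All differences are relative to the 75th percentile of each array, and other scalings moved the whole set of genes. Scaling on spike-ins shifted the median of all genes by 0.54 in BAT and 0.44 in gWAT, and scaling on Actb and Rplp0 shifted it by -0.59 in BAT. With spike-ins 8 members rose and 1 fell in BAT and 21 further pathway genes rose and 11 fell, against 5 and 4 members and 7 and 35 further genes with Actb and Rplp0. Over all genes in BAT, 7233 rose and 1843 fell with spike-ins and 1915 rose and 8890 fell with Actb and Rplp0, where 3926 rose and 4841 fell with the 75th percentile. Phgdh, Psat1, Mthfd2 and Aldh1l1 kept their direction and an adjusted p under 0.05 in BAT in all 24 other settings, as did Mthfd2 in gWAT.

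**Figure D5:**
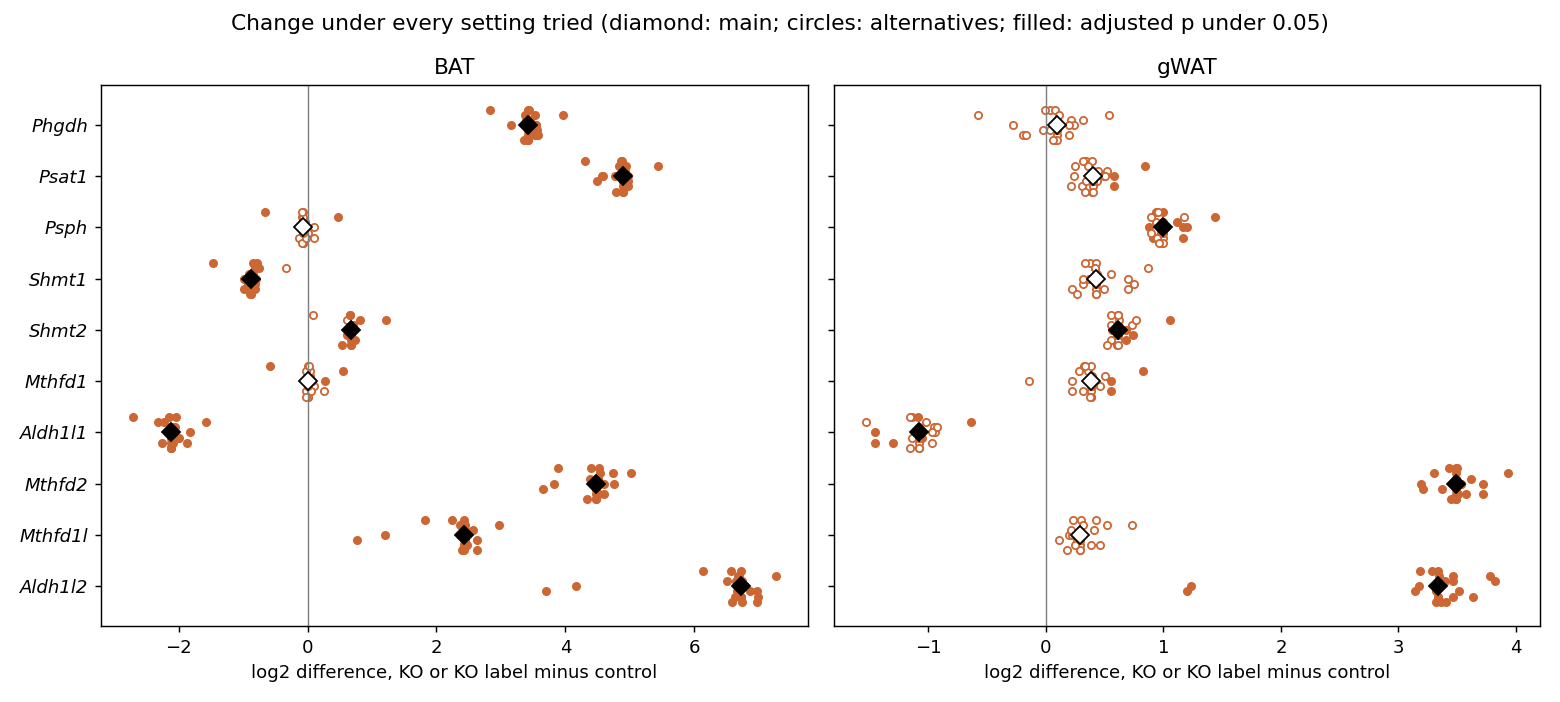
Log2 difference of each enzyme (x axis), KO or KO label minus control, with the main setting (black diamond) and every alternative setting, arrays left out included (circles), in BAT (left) and gWAT (right). Filled symbols have an adjusted p under 0.05. The circles of Mthfd2 stay right of 0 and filled in both tissues, and those of Psph, Shmt2 and Aldh1l1 in gWAT are filled in some settings and open in others.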

How the data were processed

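For each array the authors deposited Agilent Feature Extraction 10.7.1.1 intensities (processed signal, local background subtracted; also median signal and background), and a table of normalized signal ratios, close to intensity over the array's 75th percentile. Here, spots flagged as outliers were dropped and spots of a probe averaged, log2 intensity was centred on the 75th percentile, and probes were named through RefSeq accessions (32994 of 35886 matched). The brightest probe stood for a gene. Genes entered a test if 1 of the compared groups or more had them well above background throughout. limma 3.58.1 (lmFit, eBayes; R 4.3.3) was fitted per comparison over all genes tested, with Benjamini-Hochberg adjustment and a threshold of 0.05; arrays of different tissues were fitted together for the difference between tissues. The scripts were tested on simulated data. The mean signal was not used, so normexp ran on the median signal. Alternatives were other scalings, filters, probe choices, slide and replicate blocks, arrays left out, and the methods' t-test. Named genes: all members, and up to 3 genes per list and tissue with the largest change past the threshold, no overlap and detection on all 8 arrays. Members and lists were chosen with earlier results of these data known. Replicates are taken as separate mice from the labels, and p-values measure the spread between arrays, whose number limits the precision.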

Additional observations from a re-analysis of the deposited data

Results flagged for a closer look

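On 2 occasions 1 array stood apart from the other 3 of its group, among 44 groups of 4 examined for the 10 enzymes and Pgam1, where chance alone flags about 1 in 20. Psat1 was 4.63 on gWAT array 4 labelled Adipo-Pgam1 KO, from the mouse aged 14 weeks, against 5.30 to 5.41 on the other 3. Shmt2 was 0.91 on BAT control array 2, against 1.17 to 1.18 on the other 3.

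The change with the KO label differed between gWAT and BAT for Pgam1 and 8 enzymes, by the limma test of the difference over all 16 arrays. That test called 48.3% of the 14807 genes tested. Of the 8 enzymes well above background on all 16 arrays, 6 were called, beside 6294 of 12372 such genes. Change in gWAT minus change in BAT was 2.69 for Pgam1, -3.33 for Phgdh, -4.49 for Psat1, 1.06 for Psph, 1.30 for Shmt1, 1.04 for Aldh1l1, -0.98 for Mthfd2, -2.13 for Mthfd1l and -3.38 for Aldh1l2 (log2). Because Pgam1 itself moved in opposite directions, this contrast compares BAT in which the targeted transcript was lower with gWAT in which it was higher. The values for Aldh1l2 and Mthfd1l are fitted against BAT controls not well above background.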

How the results depend on the processing

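The counts of members called in BAT (8) and of further pathway genes called in BAT (35) stayed within 1.5 times in every setting, at 8 and at 31 to 35 when single arrays were left out. In gWAT the 5 members called became 3 with centring on array medians and 2 with no filter on dim probes, the slide as a fixed block, the replicate block or the methods' t-test, and 2 to 6 when single arrays were left out. The 13 further pathway genes called in gWAT became 5 with median centring, 6 with no filter, 1 with the slide as a fixed block, 6 with the replicate block and 8 with the methods' t-test, and 5 to 15 without single arrays. The 8 members called for the difference between tissues became 4 under the fixed slide block (6 to 9 without single arrays), and the 8 called between control tissues became 5 (7 to 8 without single arrays). Spike-in scaling split the gWAT calls of further pathway genes 17 higher to 2 lower, where the 75th percentile gave 7 to 6. The split of all genes called in gWAT moved the same way, to 4846 higher and 240 lower from 1413 and 1111. The methods' t-test called 5 members in gWAT before adjustment and 2 after it, and 8 and 8 in BAT. Over all genes, 2524 were called in gWAT, and 184 with the slide as a fixed block, 1082 with the replicate block, 1136 with no filter, 1382 with median centring, 1614 with the methods' t-test, 4028 with a single fit over all arrays and 5086 with spike-ins. The 7155 called for the difference between tissues became 3261 under the fixed slide block.

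The values that changed sign were of members not called at the 75th percentile scaling and of 3 purine genes that were. Psph in BAT (-0.07) was 0.095 with quantile normalization, 0.0060 with normexp, 0.10 with both and 0.47 with spike-ins. Mthfd1 in BAT (0.01) was -0.58 with Actb and Rplp0, and -0.029 to 0.057 without single arrays. Phgdh in gWAT (0.09) was -0.19 with quantile normalization, -0.28 with normexp and quantile, -0.57 with the slide as a fixed block, and -0.17 to 0.31 without single arrays. Mthfd1 in gWAT (0.39) was -0.14 as the mean of probes. For the difference between tissues, Mthfd1 (0.38) was -0.024 with quantile normalization, -0.043 with normexp and quantile and -0.21 as the mean of probes. There Shmt2 (-0.06) was 0.029 with median centring, 0.47 with Actb and Rplp0, 0.16 with the slide as a fixed block, and -0.20 to 0.080 without single arrays. Mthfd1 between control tissues (0.17) was -0.17 with quantile normalization, -0.19 with normexp and quantile, -0.063 with spike-ins and -0.085 as the mean of probes. Gart, Paics and Pfas in BAT were 0.029, 0.11 and 0.066 with spike-ins. The cause of these changes was not tested.

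Same-numbered arrays did not all deviate together. The correlations of their deviations from the group means ran from -0.19 to 0.44 over 16 pairs. Across the tissues 3 of 4 pairs were above 0.1 in each genotype, with replicate 4 below 0, and between genotypes 2 of 4 were in BAT and 1 of 4 in gWAT. No comparison had every pair above 0.1 or every array best matched by its own number, so the replicate block treats arrays that share only a number. It left 8 members called in BAT and 8 for the difference between tissues, beside 8603 of 14267 and 7037 of 14807 genes. Leaving out the arrays of the 14-week mice, an alternative added after the data were seen, gave 8 members called in BAT and 6 in gWAT, of which 4 were among the 5. All genes called were then 8589 of 14927 in BAT and 3207 of 14369 in gWAT, where all arrays gave 8767 of 14267 and 2524 of 14137. Signal over background limits Aldh1l2, whose control levels are bounds in both tissues, and Mthfd1l, whose BAT control level is one.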
